A study of Mus musculus with 3 samples.

Results

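The glucocorticoid response was followed through 6 genes in activated mouse CD4 T cells cultured in media of different nutrient content. They were Nr3c1, which encodes the glucocorticoid receptor, and the response genes Fkbp5, Tsc22d3, Per1, Klf9 and Sgk1. The genes were taken by symbol, with all 6 found among 23282 gene rows and all 6 among the 12770 rows with enough reads to be tested. They were chosen with their values in these same libraries known, so their levels and differences are given as a description, without p-values.

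The glucocorticoid receptor is a transcription factor that waits in the cytoplasm in a complex with heat shock proteins and their co-chaperones. When cortisol, or corticosterone in the mouse, binds it, the receptor moves to the nucleus and attaches to DNA at response elements made of a pair of inverted half-sites. In T cells it restrains cytokine production, and in thymocytes it can trigger cell death. FKBP51, the product of Fkbp5, sits on the receptor complex and lowers its affinity for hormone, so that its induction forms a feedback loop.

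CD4 T cells came from the spleen and lymph nodes of C57BL/6 mice, which in the study were young adult females unless specified otherwise. All cells were stimulated with antibodies to CD3 and CD28 (2 µg/ml in the methods of the study) for 72 h. Complete medium (CM) was RPMI-1640 with fetal bovine serum. Dialyzed medium (DM) was RPMI without amino acids, with dialyzed serum. DM+Met was DM with 30 µM methionine added. By the measurement of the study DM itself also held some methionine, so DM was not free of it. Dialysis removes small molecules from serum, so CM and DM differ in the amino acids and in whatever else is lost in dialysis. No hormone was measured here, and the labels name none as added. Each medium had 2 numbered library files. What these files are is not given in the labels, and the study describes 2 biologically independent samples, so p-values measure only the spread between these files. The fit behind them pools this spread over all media, so each comparison also carries the spread of the medium outside it.

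The 6 libraries held 8504742 to 12377285 reads, recovered from the equal steps of the deposited values. Each medium had 2 libraries, a number that limits every error given here. The DM libraries differed from each other more than the libraries of CM and DM+Met did, with a chi-square statistic per degree of freedom of 35.9, against 19.1 and 18.2. Differences that involve DM are therefore also given without single libraries. Summed over 8 CD4 T cell markers, the libraries held 1650 to 1928 CPM (reads scaled to a common library size), and no library lacked any of them. Myeloid cell markers summed to 38.4 and 30.7 CPM for CM, 62.9 and 47.8 for DM, and 58.0 and 81.5 for DM+Met. These markers did not all move together. Against CM, Fcer1g had a lower mean in DM (log2 difference −0.24), and Csf1r (−0.21) and Cd14 (−0.16) had lower means in DM+Met. The other myeloid markers had higher means, and only Lyz2 was called by limma, in DM (2.13). CD8 T and NK cell markers summed to 74.8 and 77.2 CPM in CM and 33.0 to 42.6 in the other 4 libraries. Within this sum Cd8a and Cd8b1 were lower in the dialyzed media, while the NK cell markers Klrb1c and Klrk1 were higher. Klrd1 and Ncr1 overlapped between CM and DM. B cell markers summed to 57.6 to 95.3 CPM, with Pax5 at 0 reads in every library. In such bulk samples, fewer cells of a type and less RNA per cell cannot be told apart.

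To look for motifs close to the starts of these genes, promoter windows from RefSeq (GRCm38.p6) were searched on both strands. Each ran from 250 bases before to 50 bases after an annotated start. There were 13 windows for 5 of the 6 genes and none for Nr3c1. The full response element, GNACANNNTGTNC, occurred in 1 of the 13 windows, that of an Sgk1 start, and in 0.475% of all 32851 mouse windows. The half-site AGAACA occurred in 4 windows, of Tsc22d3 and Sgk1, and in 19% of all windows. The E-box CACGTG, the site of the clock proteins CLOCK and BMAL1, occurred in 3 windows, 1 each for Fkbp5, Per1 and Sgk1, and in 7.15% of all windows. The cAMP element TGACGTCA occurred in none of the 13 windows and in 1.79% of all windows. A match describes these letters and shows no binding. A window without a match says nothing of sites outside it, which were not searched.

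The 250 bases before the start are shown for the Sgk1 window with the full element and for the Fkbp5 and Per1 windows with an E-box, since Sgk1 and Fkbp5 differed most between media and Per1 is the clock gene of the group. Capitals mark the motifs.
Sgk1, chr10:21993640-21993889, plus strand: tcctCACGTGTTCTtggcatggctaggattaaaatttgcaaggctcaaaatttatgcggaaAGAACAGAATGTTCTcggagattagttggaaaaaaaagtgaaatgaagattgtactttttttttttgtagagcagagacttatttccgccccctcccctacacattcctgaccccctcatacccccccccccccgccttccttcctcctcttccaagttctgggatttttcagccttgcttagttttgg
Fkbp5, chr17:28486150-28486399, minus strand: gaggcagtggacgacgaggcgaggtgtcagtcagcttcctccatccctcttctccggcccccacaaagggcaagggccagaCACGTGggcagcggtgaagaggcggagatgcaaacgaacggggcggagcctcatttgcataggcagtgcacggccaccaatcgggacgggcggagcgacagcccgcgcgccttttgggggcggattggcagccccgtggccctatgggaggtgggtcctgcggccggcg
Per1, chr11:69098699-69098948, plus strand: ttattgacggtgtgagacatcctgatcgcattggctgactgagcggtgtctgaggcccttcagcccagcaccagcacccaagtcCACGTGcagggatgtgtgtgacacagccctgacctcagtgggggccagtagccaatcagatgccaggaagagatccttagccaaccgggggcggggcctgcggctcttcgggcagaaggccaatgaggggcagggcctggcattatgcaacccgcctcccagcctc

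In Sgk1 the element read GAACAGAATGTTC at chr10:21993702-21993714 and began 188 bases before the annotated Sgk1 start that this window covers. Its end lay 952 bases before the most downstream annotated Sgk1 start. With the base on either side it held the half-site AGAACA on both strands. Another half-site in the same window overlapped the E-box. In Fkbp5 the E-box began 169 bases before the start, and in Per1 166 bases before it. The Klf9 window held none of the 4 motifs.

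The receptor gene was higher in both dialyzed media. For Nr3c1, CM gave 463 and 386 reads, DM 1124 and 1235, and DM+Met 1235 and 1077. On the log2(CPM + 1) scale CM stood at 5.75 and 5.66, DM at 6.85 and 6.78, and DM+Met at 6.71 and 6.52. All 4 libraries of the dialyzed media lay above both CM libraries, and the libraries of each medium lay close together. The log2 difference was 1.12 (SE 0.19) between DM and CM, a 2.17-fold higher level, and 0.91 (SE 0.19) between DM+Met and CM. Leaving out single libraries moved the DM difference between 1.07 and 1.16. Both DM+Met libraries lay below both DM libraries, but the difference of −0.21 was close to its SE of 0.19. Nr3c1 lies on the minus strand of chromosome 18 from 39410545 to 39519421 (GENCODE, mm10), and no other annotated gene overlaps it. Its closest relative among steroid receptors, Nr3c2 for mineralocorticoids, had no reads in any library.

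Fkbp5, the feedback gene that glucocorticoids induce in nearly every tissue, was lower in the dialyzed media. CM gave 559 and 453 reads, DM 105 and 286, and DM+Met 227 and 219. On the log2 scale CM stood at 6.02 and 5.88, DM at 3.55 and 4.71, and DM+Met at 4.32 and 4.28. No library of a dialyzed medium reached either CM library. The log2 difference was −1.82 (SE 0.38) between DM and CM, which left 0.284 of the CM level, and −1.65 (SE 0.38) between DM+Met and CM. The DM libraries were far apart, with an SD of 0.82 against 0.09 in CM and 0.03 in DM+Met. This spread of DM also enters the SE between DM+Met and CM, since the fit pools all media. Without DM library 1 the difference from CM was −1.24, and without DM library 2 it was −2.40. Both DM+Met libraries lay between the DM libraries. The difference between these media was 0.17 (SE 0.38), and it turned to −0.41 without DM library 1. Fkbp5 spans 28399094 to 28517527 on the minus strand of chromosome 17. It overlaps 4 annotated genes on either strand, none of them within 1 kb of its 3′ end, where the reads of this library kit arise.

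Sgk1, which encodes a serum- and glucocorticoid-induced kinase that acts on ion channels and on FOXO factors, was higher where Fkbp5 was lower. CM gave 74 and 50 reads, DM 353 and 238, and DM+Met 390 and 263. On the log2 scale CM stood at 3.24 and 2.89, DM at 5.21 and 4.46, and DM+Met at 5.07 and 4.53. All libraries of the dialyzed media lay above both CM libraries, and both DM+Met libraries lay between the DM libraries. The log2 difference was 1.77 (SE 0.40) between DM and CM, a 3.42-fold higher level, and 1.74 (SE 0.40) between DM+Met and CM. Between DM+Met and DM it was −0.03 (SE 0.40). Leaving out single libraries kept the difference of DM from CM between 1.40, without DM library 1, and 2.15, without DM library 2. Sgk1 lies on the plus strand of chromosome 10 from 21882184 to 21999903.

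Klf9, a zinc finger repressor that many tissues switch on with glucocorticoids, was higher in the dialyzed media by less. CM gave 154 and 206 reads, DM 366 and 366, and DM+Met 413 and 383. On the log2 scale CM stood at 4.21 and 4.78, DM at 5.26 and 5.06, and DM+Met at 5.15 and 5.05. Each library of a dialyzed medium lay above both CM libraries, but CM library 2 came close to them. The log2 difference from CM was 0.67 (SE 0.30) in DM and 0.61 (SE 0.30) in DM+Met. It was 0.38 in DM without CM library 1 and 0.95 without CM library 2. Between DM+Met and DM it was −0.06 (SE 0.30). Klf9 lies on the plus strand of chromosome 19 from 23141226 to 23168134, and a microRNA gene, Mir1192, lies within it.

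Per1, a clock gene that is also an immediate target of the receptor, varied between the libraries of each medium, with SDs of 0.51 (CM), 0.48 (DM) and 0.44 (DM+Met) on the log2 scale. CM gave 355 and 523 reads, DM 399 and 283, and DM+Met 393 and 251. On the log2 scale CM stood at 5.37 and 6.09, DM at 5.38 and 4.70, and DM+Met at 5.08 and 4.47. CM library 1 and DM library 1 were nearly equal, so CM and DM overlapped, while both DM+Met libraries lay below both CM libraries. The log2 difference from CM was −0.69 (SE 0.36) in DM and −0.96 (SE 0.36) in DM+Met, and between DM+Met and DM it was −0.27 (SE 0.36). The value for DM was −0.33 without CM library 2, −0.35 without DM library 2, −1.05 without CM library 1 and −1.03 without DM library 1. Per1 lies on the plus strand of chromosome 11 from 69095217 to 69109960.

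Tsc22d3, which encodes the leucine zipper protein GILZ and is a standard reporter of glucocorticoid action in lymphocytes, differed little between the media. CM gave 686 and 519 reads, DM 594 and 729, and DM+Met 928 and 855. On the log2 scale CM stood at 6.31 and 6.08, DM at 5.94 and 6.03, and DM+Met at 6.30 and 6.19. The DM libraries lay just below the CM libraries, and the DM+Met libraries lay between the CM libraries. The log2 difference was −0.20 (SE 0.20) between DM and CM, 0.26 (SE 0.20) between DM+Met and DM, and 0.05 (SE 0.20) between DM+Met and CM. Without CM library 1 the first of these was −0.09, and without CM library 2 it was −0.32. Tsc22d3 lies on the minus strand of the X chromosome from 140539528 to 140600659.

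**Figure D1:**
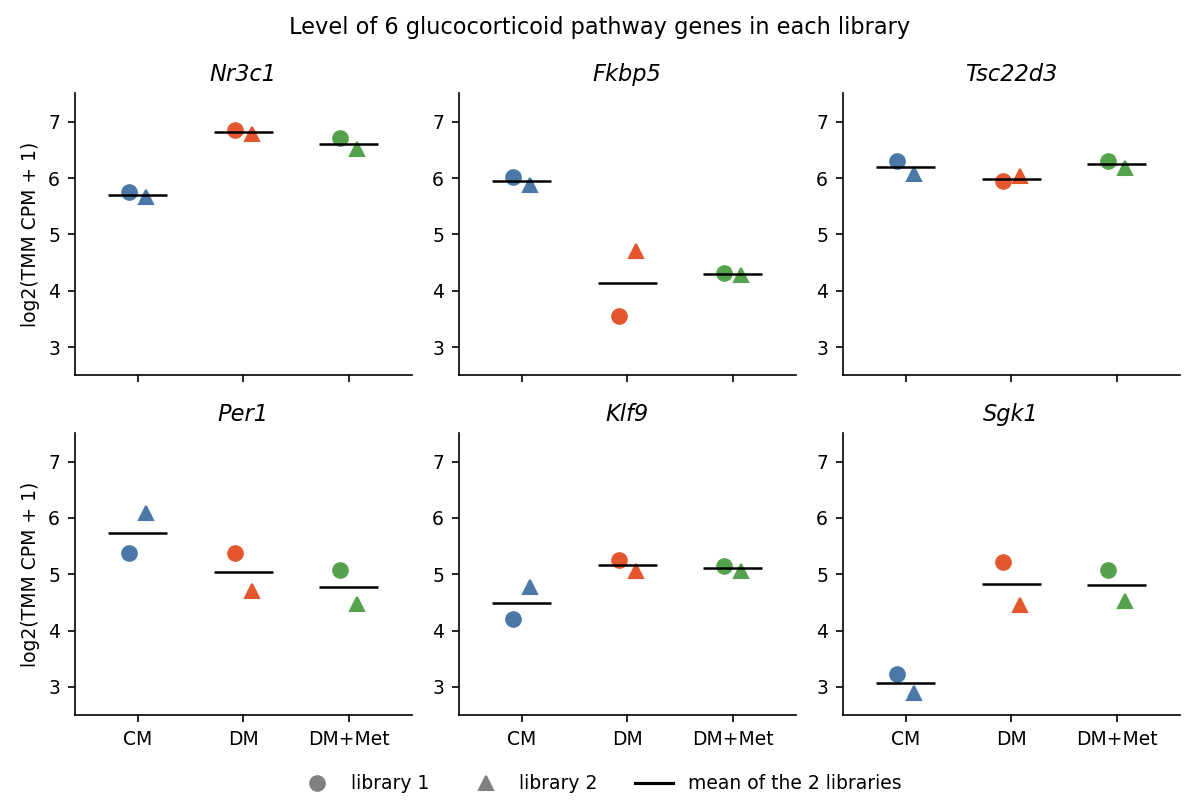
Level of each gene in each library on the log2(TMM CPM + 1) scale, by medium, with circles for library 1, triangles for library 2 and a line at the mean of both. Nr3c1 and Sgk1 sit higher and Fkbp5 sits lower in DM and DM+Met than in CM, Tsc22d3 hardly moves, and the DM libraries of Fkbp5 lie apart, at 3.55 and 4.71.

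The first comparison sets DM against CM, media that differ in the amino acids and in whatever else dialysis removes from serum. Between DM and CM, the 6 genes did not share a direction. The log2 differences ran from −1.82 for Fkbp5 to 1.77 for Sgk1, with 3 genes above 0 and 3 below, and a median of 0.23 against 0.07 over all tested genes. The fit across all genes (limma, adjusted p below 0.05) called 3 of the 6, 2 higher (Nr3c1 and Sgk1) and 1 lower (Fkbp5). The same fit called 16.9% of all tested genes, 7.8% higher and 9.07% lower, and nothing is read from the count of the 6 against it, since they were chosen on this contrast. Nr3c1 exceeded 86.4% of tested genes in its difference, Klf9 74.7% and Sgk1 95.2%, while 4.1% lay below Fkbp5, 19.8% below Per1 and 37.6% below Tsc22d3. The call of Nr3c1 held in each of 16 alternative fits. These refit the libraries in which the genes were chosen, so they show dependence on the processing and give the difference no further support. The call of Fkbp5 was lost without CM library 1 (−1.75) and without CM library 2 (−1.88), and that of Sgk1 was lost whichever single library of CM or DM was left out (1.40 to 2.15). Leaving out a library lost most calls over all tested genes as well, so such a loss is not particular to these genes. With library totals 48.3% of the genes called were higher. Scaled to library totals without Rn45s, the precursor of ribosomal RNA that took 31.0% to 38.3% of reads in CM and DM, 59.6% of the genes called were higher, against 46.2% with the deposited scaling, and the directions of the 6 genes did not change.

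The second comparison asks what adding methionine to DM changes. Between DM+Met and DM, none of the 6 genes was called by limma or in any alternative fit, limma-voom included, where the fit called 0.0548% of all tested genes, 0.0392% higher and 0.0157% lower. That is 7 genes, and 1238 genes had an unadjusted p below 0.05. The differences of the 6 genes ran from −0.27 for Per1 to 0.26 for Tsc22d3, with a median of −0.05 against 0.01 over all tested genes. Of the 6, Nr3c1 and Tsc22d3 were the genes whose libraries did not overlap between these media, Nr3c1 lower and Tsc22d3 higher in DM+Met. The share of all tested genes without such overlap was not counted, so nothing is read from this. For Fkbp5, Per1, Klf9 and Sgk1 the difference was smaller than its SE of 0.30 to 0.40, which does not show that these media are alike. The signs depend on the scaling. With library totals all tested genes shifted by a median of 0.34 and all 6 genes lay above 0, with a median of 0.31, and of the genes called 92.7% were higher against 71.4% with the deposited scaling. Rn45s took 15.5% and 20.1% of reads in DM+Met. With library totals without Rn45s the median was −0.02 over all tested genes and −0.08 over the 6, of which 2 lay above 0 and 4 below, and 71.4% of the genes called were higher.

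The third comparison sets DM+Met against CM and shares the CM libraries with the first. It called 3 of the 6 genes by limma, Nr3c1 and Sgk1 higher and Fkbp5 lower, where it called 15.3% of all tested genes, 6.92% higher and 8.36% lower. Nothing is read from the count of the 6 here either, since they were chosen with their values in these libraries known. Side by side with the first comparison, the log2 differences were 0.91 and 1.12 for Nr3c1, −1.65 and −1.82 for Fkbp5, 1.74 and 1.77 for Sgk1, 0.61 and 0.67 for Klf9, −0.96 and −0.69 for Per1, and 0.05 and −0.20 for Tsc22d3. The median of the 6 was 0.33 against 0.06 over all tested genes. None of the 3 calls held when any single library of CM or DM+Met was left out, with differences of 0.81 to 1.0 for Nr3c1, −1.72 to −1.58 for Fkbp5 and 1.47 to 2.01 for Sgk1. Fits with 1 library left out lost most calls over all tested genes as well, so this loss is not particular to these genes. With library totals, 76.3% of the genes called were higher, and without Rn45s 57.4%, against 45.3% with the deposited scaling.

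**Figure D2:**
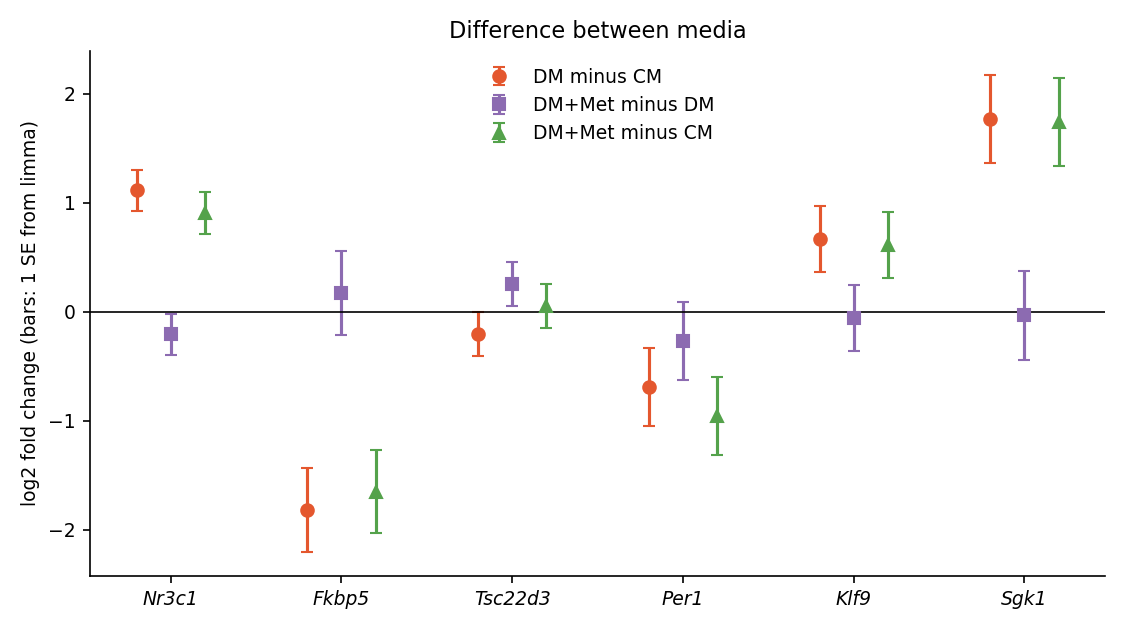
Log2 fold change of each gene in the 3 comparisons, with bars of 1 SE from the limma fit. The DM minus CM and DM+Met minus CM points lie near each other for every gene, both use the same CM libraries, and the DM+Met minus DM points lie between −0.27 and 0.26.

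**Figure D3:**
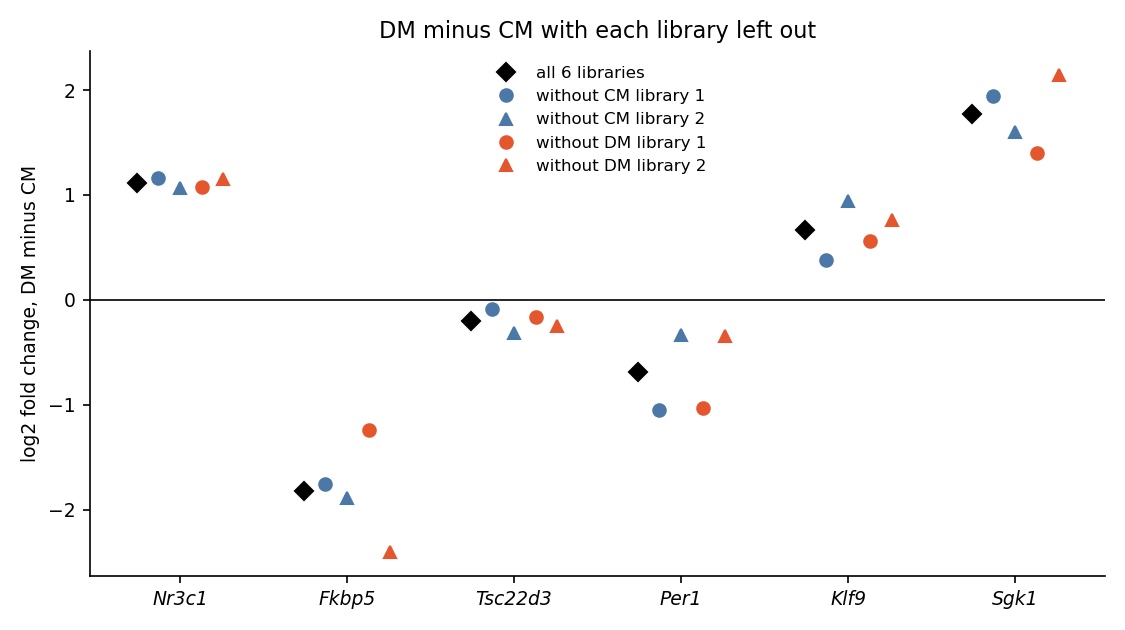
Log2 fold change of DM minus CM for each gene with all libraries (diamonds) and with each CM or DM library left out. Nr3c1 stays between 1.07 and 1.16, Fkbp5 ranges from −2.40 to −1.24 and Per1 from −1.05 to −0.33.

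Among themselves the 6 genes had different profiles over the 6 libraries. Likeness was measured as the root mean square difference of log2 levels after each gene was centred on its own mean. Nr3c1 was nearest to Klf9 (0.27) and then Sgk1 (0.43), and Fkbp5 and Sgk1 were 1.74 apart. Of 7501 other genes with a mean of at least 10 CPM, those nearest to Nr3c1 were Fscn1 (0.052), Rcor3 and Top3b. Those nearest to Fkbp5 were Ikzf3 (0.138), Mcm3 and Cdc6, the last 2 being replication factors. Nearest to Sgk1 were Ccdc125 (0.115), Gimap8 and Fbrsl1, to Klf9 Pom121 (0.044), Zdhhc2 and Xlr3b, to Per1 Mbnl2 (0.125), Rpe and Arhgap12, and to Tsc22d3 Nol7 (0.041), H2-T10 and Psmc5. These distances rest on 6 libraries and are a description.

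The receptor depends on chaperones to bind hormone, and of 16 genes of the receptor complex 5 fell and none rose in DM against CM (limma, adjusted p below 0.05). That is 31.2% of the list, where 16.9% of all tested genes were called and 9.07% were lower. This list and those below were written with earlier results of these data known, so such shares are a description. The median log2 difference was −0.48 against 0.07 over all tested genes. The cytosolic HSP90 genes that hold the receptor ready, Hsp90ab1 and Hsp90aa1, fell by 1.63 (SE 0.13, limma adjusted p 0.000124) and 1.42 (SE 0.15, limma adjusted p 0.000457). Hsp90ab1 stood at 12.17 and 12.28 with CM, 10.61 and 10.57 with DM, and 10.73 and 10.61 with DM+Met, with both CM libraries above the other 4. Hspa8, the constitutive HSP70, fell by 1.42 (limma adjusted p 0.00061), and these 3 calls held in each of 16 alternative fits. Hsp90ab1 and Hspa8 have processed copies elsewhere in the genome, between which reads could be divided. The phosphatase Ppp5c fell by 1.17 (limma adjusted p 0.0151), and the HSP70 co-chaperone St13, chosen after its value was seen, by 1.17 (limma adjusted p 0.00624). Ppp5c lost its call without CM library 1, CM library 2 or DM library 2 (−1.33 to −0.88), and St13 without CM library 1, CM library 2 or DM library 1 (−1.25 to −0.89). Fkbp4, the FKBP that competes with FKBP51 for the complex, differed by −0.59 (SE 0.22, limma adjusted p 0.0914), which did not pass. In DM+Met against CM 4 genes fell and none rose, Hsp90ab1 by 1.55 and Hsp90aa1 by 1.42 among them, and between DM+Met and DM none of the 16 was called.

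Of 18 cofactors that the receptor recruits, 3 rose and 1 fell in DM against CM (22.2%, against 16.9% of all tested genes), with a median of 0.46. The histone acetyltransferase Kat2b rose by 1.02 (SE 0.20, limma adjusted p 0.00813), Crebbp by 0.70 (limma adjusted p 0.0288) and the mediator subunit Med1 by 0.63 (limma adjusted p 0.0481). Kat2b lost its call without CM library 2 (0.95), and Crebbp (0.51 to 0.89) and Med1 (0.47 to 0.79) lost theirs whichever library of CM or DM was left out. In DM+Met against CM 4 of the 18 rose and none fell, with Ep300 at 0.74 (limma adjusted p 0.0296), a call lost whichever library of CM or DM+Met was left out (0.59 to 0.89).

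Of 11 genes of steroid synthesis, conversion and export, with the receptor for mineralocorticoids among them, 7 had enough reads to be tested and 1 fell in DM against CM (14.3%, against 16.9% of all tested genes). Cyp11a1, the side chain cleavage enzyme that starts steroid synthesis from cholesterol, had 724 and 582 reads with CM, 41 and 9 with DM, and 33 and 0 with DM+Met. It fell by 4.70 (SE 0.73, limma adjusted p 0.00315) in DM, a call lost without CM library 1, DM library 1 or DM library 2 (−5.47 to −3.94). Between DM+Met and CM the log2 difference of Cyp11a1 was −5.36, and −6.31 to −4.4 with single libraries left out. That call held in every alternative fit that tested the gene. The adrenal enzymes that finish glucocorticoid synthesis, Cyp21a1 and Cyp11b1, had no reads in any library. Abcb1a, a pump that exports steroids among its substrates, had 34 and 21 reads with CM, 115 and 117 with DM, and 167 and 208 with DM+Met, and rose by 1.97 (limma adjusted p 0.0201) in DM+Met against CM, a call lost whichever library of CM or DM+Met was left out (1.77 to 2.17). Hsd11b1, which regenerates active hormone from its inert form, had 29 to 73 reads per library and differed by 0.18 (SE 0.61) between DM and CM.

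Genes that glucocorticoids induce did not share a direction. Of 30 such genes beyond the 6, 28 were tested, 3 rose and 5 fell in DM against CM (28.6%, against 16.9% of all tested genes), with a median of −0.13 against 0.07 over all tested genes. The metallothioneins Mt2 and Mt1, which bind zinc and respond to metals as well as to hormone, fell by 4.45 (SE 0.24, limma adjusted p 1.61e-05) and 3.70 (SE 0.16, limma adjusted p 9.45e-06). Mt1 had 7846 and 8088 reads in CM and 752 to 878 in the other 4 libraries. Ddit4, a stress-induced inhibitor of mTORC1, fell by 1.38 (limma adjusted p 0.00706) and the chemokine receptor Cxcr4 by 1.28 (limma adjusted p 0.0444). Il7r, the receptor chain for interleukin-7, chosen after its value was seen, fell by 0.72 (limma adjusted p 0.0145). Txnip, which binds thioredoxin and limits glucose uptake, rose by 1.82 (SE 0.18, limma adjusted p 0.000357), the phosphatase Dusp1 by 1.40 (limma adjusted p 0.0228) and annexin A1 (Anxa1) by 2.09 (limma adjusted p 0.0286) from 4 and 3 reads in CM to 55 and 51 in DM.

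The calls of Mt1, Mt2 and Txnip held in each of 16 alternative fits, and the other 5 were lost when 1 library was left out. For Cxcr4 these were CM library 1, CM library 2 and DM library 1 (−1.39 to −0.64, the last without DM library 1), and for Ddit4 CM library 1 and CM library 2 (−1.49 to −1.27, with −0.90 but still called without DM library 2). Dusp1 lost its call without CM library 2, DM library 1 or DM library 2 (1.10 to 1.52), Anxa1 without CM library 1, CM library 2 or DM library 1 (1.95 to 2.12), and Il7r whichever library of CM or DM was left out (−0.83 to −0.61). In DM+Met against CM 3 of the 28 rose and 3 fell, and between DM+Met and DM none was called.

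Genes that glucocorticoids repress also split. Of 18, 14 were tested, 4 rose and 3 fell in DM against CM (50%, against 16.9% of all tested genes), with a median of −0.16. Tnf rose by 2.42 (SE 0.28, limma adjusted p 0.000746), from 88 and 66 reads with CM to 595 and 538 with DM, and DM+Met gave 767 and 704. Il6 had no reads in CM and 122 and 60 in DM, at least 24.5-fold higher against a floor of 3 reads per library. Il1b rose by 2.56 (limma adjusted p 0.0162) and Ccl3 by 2.18 (limma adjusted p 0.0267). Tbx21, the T helper 1 master regulator, fell by 3.27 (limma adjusted p 0.00691), Il17a by 3.44 (limma adjusted p 0.00584) and Ifng by 2.93 (limma adjusted p 0.0176). Tnf, Il6, Il1b and Ccl3 are also products of myeloid cells. The summed markers of these cells were higher in the dialyzed media, though not every marker was. The part of myeloid cells in these values was not tested. CD8 T and NK cells also make Ifng and Tbx21. Of their markers Cd8a fell by 1.72 in DM against CM and Cd8b1 differed by −0.82, while the NK cell marker Klrb1c had no reads in CM and 17 to 45 in the other 4 libraries, and the part of these cells was not tested either. Il2, the cytokine most often named as a target of the receptor in T cells, had 10 reads in CM library 2 and none elsewhere.

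Among the 7 calls of this list Tnf held in each of 16 alternative fits. The others were lost without 1 library, Il6 without CM library 1 (a fitted value of 3.20), Il1b whichever library of CM or DM was left out (2.17 to 2.95), and Ccl3 without CM library 2, DM library 1 or DM library 2 (1.64 to 2.24). Ifng lost its call without CM library 1, CM library 2 or DM library 1 (−3.43 to −2.18), Tbx21 without CM library 1, CM library 2 or DM library 2 (−3.42 to −2.30), and Il17a without CM library 1, DM library 1 or DM library 2 (−3.57 to −2.80). In DM+Met against CM 3 of the 14 rose and 2 fell.

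**Figure D4:**
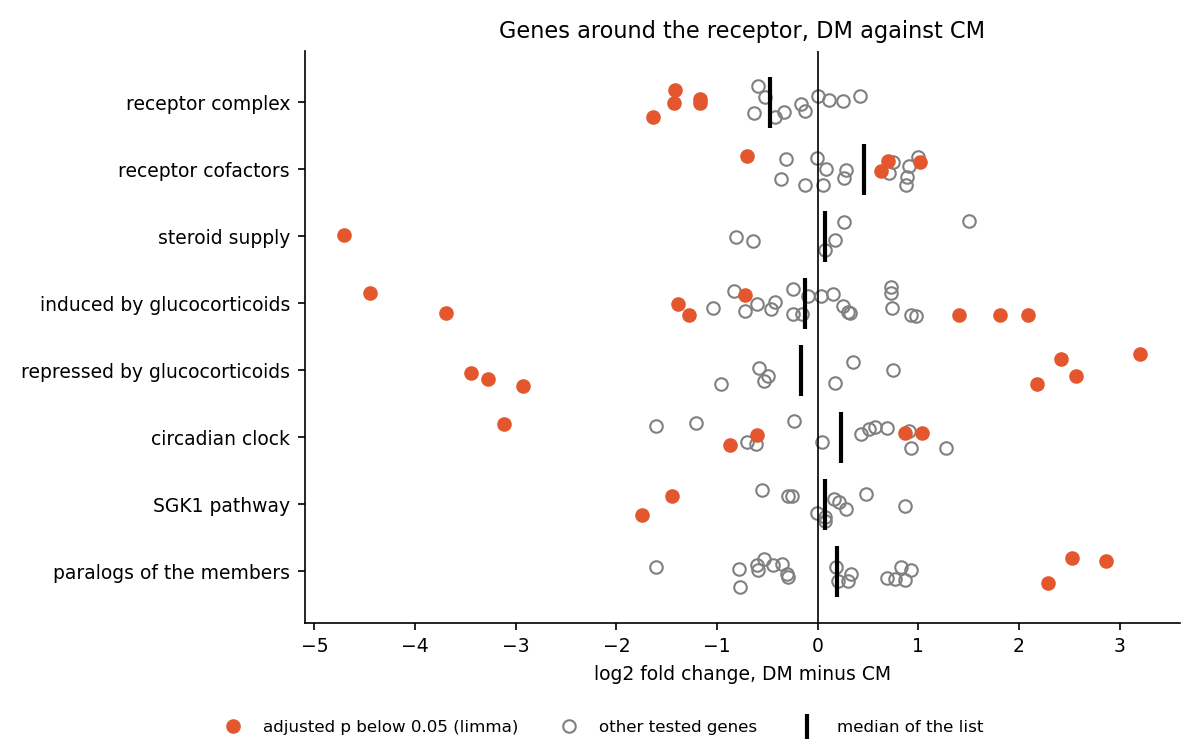
Log2 fold change of DM minus CM for the tested genes of 8 lists around the receptor, with filled circles for genes past the limma threshold, open circles for other genes and a bar at the median of the list. In the receptor complex the 5 genes called all lie below 0, whereas induced and repressed genes are called on both sides, and Il6, the point farthest right, is a fitted value of a gene without reads in CM.

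Per1 belongs to the clock, and of 18 tested clock genes 2 rose and 3 fell in DM against CM (27.8%, against 16.9% of all tested genes), with a median of 0.24. Its partner in repression Cry1 rose by 1.03 (limma adjusted p 0.0407) and the nuclear receptor Rora by 0.87 (limma adjusted p 0.022). The kinase Csnk1d, which marks PER proteins for degradation, fell by 0.87 (limma adjusted p 0.0106), and the repressors Bhlhe41 and Bhlhe40 by 3.12 (limma adjusted p 0.011) and 0.61 (limma adjusted p 0.0434). Each of these calls was lost without at least 1 library, Cry1 (0.86 to 1.2) and Bhlhe40 (−0.76 to −0.45) whichever library of CM or DM was left out, Rora without CM library 1, CM library 2 or DM library 2 (0.64 to 0.96), Csnk1d without CM library 1 or CM library 2 (−0.91 to −0.84), and Bhlhe41 without CM library 1 or DM library 2 (−2.69 to −2.48). The paralog Per2 had 3 and 17 reads with CM, 14 and 61 with DM, and 82 and 73 with DM+Met, and its difference of 0.93 (SE 0.69) between DM and CM did not pass.

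Of 13 tested genes around the kinase SGK1 2 fell and none rose in DM against CM, a share of 15.4% near the 16.9% of all tested genes, with a median of 0.07, the same as over all tested genes. Ndrg1, whose product is a direct substrate of SGK1, fell by 1.45 (SE 0.18, limma adjusted p 0.00109) in DM and by 2.03 (limma adjusted p 0.00015) in DM+Met against CM, and both calls held in each of 16 alternative fits. Mlst8, a subunit of the mTOR complexes, one of which activates SGK1, fell by 1.75 (limma adjusted p 0.0264), a call lost whichever library of CM or DM was left out (−2.12 to −1.37). Ndrg2, another SGK1 substrate, fell by 1.13 (limma adjusted p 0.0394) in DM+Met against CM, a call lost whichever library of CM or DM+Met was left out (−1.51 to −0.75, the last without DM+Met library 2). The paralog Sgk3 had 33 and 62 reads in CM and 99 to 133 in the other 4 libraries, with a difference of 0.87 (SE 0.51) between DM and CM that did not pass, and Sgk2 had no reads.

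Of 22 tested paralogs of the 6 genes 3 rose and none fell in DM against CM, a share of 13.6% near the 16.9% of all tested genes, with a median of 0.19. Klf3 and Klf2, relatives of Klf9 that keep lymphocytes quiescent or guide their traffic, rose by 2.86 (SE 0.25, limma adjusted p 0.000214) and 2.53 (SE 0.25, limma adjusted p 0.000388), and both calls held in each of 16 alternative fits. For Klf2, CM gave 899 and 499 reads, DM 5603 and 4402, and DM+Met 3312 and 4064. Tsc22d1, a relative of Tsc22d3, rose by 2.29 (SE 0.52, limma adjusted p 0.0162) from 9 and 10 reads in CM to 96 and 104 in DM, a call lost without CM library 1, DM library 1 or DM library 2 (2.20 to 2.33). Tsc22d3 itself differed by at most 0.26 on the log2 scale in the 3 comparisons.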

How the data were processed

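RNA from activated CD4 T cells in 3 media (2 library files per medium) was sequenced with a 3′-end kit. The submitters' processing notes name Bowtie2, bedtools and mm10, and the annotation and the use of strand are not given in the sources used here. The deposited values are log2 of TMM-scaled CPM plus 1, as computed by the authors. Whole reads were recovered from their equal steps, with at least 99.776% of values up to 300 reads within 0.1 of a whole number. A floor of 3 reads covers counting error only.

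Rows with at least 0.946 CPM (10 reads at the median depth) in 2 libraries and 15 reads in all were tested, 12770 rows. The deposited log2 values of the 3 media entered 1 fit in limma 3.58.1 (R 4.3.3; lmFit, eBayes with trend, no covariates, two-sided, Benjamini-Hochberg over all rows, threshold 0.05). An SE is that of the limma fit, pooled over the 3 media, so a gene has the same SE in each comparison. An SD is over 2 libraries. "Alternative fits" changed 1 choice at a time: scaling, pseudocount, filter, limma-voom, trend, robust prior, media in the fit, replicate block, or a left-out library. Fold changes understate those of genes with few reads.

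The 6 genes and the gene lists were chosen with earlier results of these data known. Named genes were the 6 and the 3 nearest profiles. From each list, among tested genes called in at least 1 comparison, up to 4 with the highest and 4 with the lowest difference of DM from CM were added, with any called in DM+Met against DM and genes too low to be tested. St13, Il7r, Fkbp4, Hsd11b1, Per2 and Sgk3 lie outside this rule and were chosen after their values were seen. The values of 1 called gene of the cofactor list are not reported here. Libraries of the same file number shared no deviation across media (correlations of deviations −0.03 to 0.005). This cannot show whether they were paired, and the labels do not say. Gene positions are from GENCODE M21, and promoter windows from RefSeq.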

Additional observations from a re-analysis of the deposited data

How the results depend on the processing

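With 2 libraries per medium, the limits below are those of the spread. The difference of Nr3c1 between DM and CM stayed called in all alternatives, those of Fkbp5 and Sgk1 in 10 of 12 that kept all libraries. Fkbp5 was lost without a trend and with 2 media only, Sgk1 with limma-voom and with 2 media only. In DM+Met against CM, Nr3c1 was lost without a trend, Fkbp5 without a filter or a trend, and Sgk1 without a trend or with 2 media only, while Klf9 was called with library totals. Of 35 calls of list genes in DM against CM, 10 held in every alternative and 25 were lost without at least 1 library, against 9 and 20 of 29 in DM+Met against CM. No direction of a called result reversed. The cause of each change was not tested. A fit with the replicate number as a block called 1947, 7 and 1797 genes in the 3 comparisons, and none of the library numbers is known to pair cultures.

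Genes called between DM and CM (2154) were 1329 with no trend and 795 with 2 media only, and 541 to 1061 with 1 library left out. Between DM+Met and DM (7) they were 55 with library totals, 13 with a pseudocount of 5, 2 when unfiltered, 27 where each library needed 10 reads, 17 with a mean log2 of at least 2, 21 with limma-voom and 14 with a robust prior. They were 0 with no trend (1192 at an unadjusted p below 0.05), 0 with 2 media only (1303), and 0 without any 1 library (431 to 2006). Between DM+Met and CM (1952) they were 1265 with no filter, 944 with no trend, and 268 to 873 with 1 library left out. With library totals the median of the 6 genes was 0.31 in DM+Met against DM and 0.72 against CM.

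Calls between DM and CM in the lists moved as follows. With no trend there were 3 in the receptor complex, 0 among cofactors, 2 for steroid supply, 5 induced and 1 clock gene. With 2 media only there were 0 cofactors, 4 induced, 4 repressed, 1 clock and 1 SGK1 pathway gene. With no filter there were 2 cofactors, 3 clock genes and 1 SGK1 pathway gene, and with limma-voom 2 repressed and 3 clock genes. Library totals without Rn45s gave 7 cofactors and 2 steroid genes, a pseudocount of 0.1 gave 0 steroid genes, a mean log2 of at least 2 and a robust prior each gave 2, and at least 10 reads in every library gave 2 repressed genes. With 1 library left out there were 3 to 4 in the complex, 0 to 2 cofactors, 0 to 1 steroid, 3 to 6 induced, 2 to 3 repressed, 0 to 3 clock and 1 SGK1 pathway gene.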
